A study of Mus musculus with 6 samples.

Results

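The matrix receptors of the healing flexor digitorum longus (FDL) tendon were examined as a set of 43 genes, out of 53819 listed in the count table. They were chosen by symbol alone, as every gene whose symbol begins with Itga or Itgb together with *Sdc1* to *Sdc4*, *Gpc1* to *Gpc6*, *Ddr1* and *Ddr2*. Of the 43 genes, 27 are integrin subunits, 4 carry an integrin name without encoding a receptor subunit, 4 are syndecans, 6 are glypicans and 2 are discoidin receptors. RNA was sequenced from 3 DTRScxLin tendons (Scx-Cre+; DTR F/+) and 3 WT littermate tendons (Scx-Cre-; DTR F/+), 1 tendon per library. All mice, 10 to 12 weeks old and of either sex, underwent transection and repair of the FDL tendon and received 5 daily injections of diphtheria toxin (DT) from D14 to D18, and all tendons were harvested at D28 post-surgery. WT mice therefore carried the Cre-dependent DTR allele and received the toxin as well. The Scx-Cre driver is not inducible, so the toxin receptor marks every cell with a history of *Scx* expression, and *Scx* was not itself deleted. Sex was uneven between the genotypes, judged by *Xist*, a transcript of female cells. WT replicate 2 and DTRScxLin replicates 2 and 3 were rich in it (49303 to 54082 counts), and every other library held at most 4. DTRScxLin replicate 1 was thus the only library of its genotype poor in *Xist*. Sex was not a term in the fits, and its part in the differences below was not tested.

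Integrins are heterodimers of an alpha and a beta subunit that span the membrane and couple the matrix outside the cell to talin, kindlin and actin inside it. The alpha subunit largely sets the ligand: collagen, laminin, or proteins with the Arg-Gly-Asp (RGD) sequence such as fibronectin and vitronectin, while the beta2 and beta7 families are used by leukocytes to bind other cells. Syndecans and glypicans carry heparan sulfate chains and act as co-receptors for matrix proteins and growth factors, and discoidin receptors are tyrosine kinases that bind collagen directly. In tendon, these receptors connect resident fibroblasts to a matrix made mostly of fibrillar collagen.

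Each library held between 42744138 and 48854310 counts on genes. Levels are given below as normalized counts, which are counts scaled by TMM factors to the mean library size, and where 3 values stand together they follow the order of replicates 1 to 3. Genotypes were compared with edgeR's quasi-likelihood test on the 17496 genes kept by a low-count filter, and p-values were adjusted over all of them (Benjamini-Hochberg). The labelled tissue was checked with tendon markers: *Tnmd* had 50544 to 76088 normalized counts in WT and 60397 to 92273 in DTRScxLin libraries, and *Scx* had 2203, 2705 and 3066 in the WT tendons, against 3478, 3409 and 3534 in the DTRScxLin tendons. *Scx* was thus not lower in the depleted tendons at D28 (log2 fold change 0.39, adjusted p = 0.371 by edgeR). A list of 8 tendon genes held 2.24% to 2.71% of counts in WT and 2.67% to 3.22% in DTRScxLin libraries. Of these genes, *Fmod* and *Comp* were fitted lower (log2 fold changes -0.17 and -0.18) and the others higher. Transcripts of other tissues were uneven across libraries. A list of 10 skeletal muscle genes held 1.16% to 1.54% of the counts of WT libraries, but 0.202%, 1.47% and 0.398% of those of DTRScxLin replicates 1 to 3. Keratinocyte genes (8 listed) held 0.276% and 0.174% in WT replicates 1 and 2, 0.0249% in DTRScxLin replicate 3, and no more than 0.000925% elsewhere. In bulk tissue, fewer cells of a type and less RNA per cell cannot be told apart.

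The receptors were present at very different levels. Set per kilobase of exon, so that genes can be compared, *Itgb1*, the beta subunit shared by the collagen and laminin receptors and many others, was the most abundant member at a mean of 15355 normalized counts per kb over the 6 libraries. It was followed by *Itgbl1*, a secreted protein related to beta subunits but not a receptor, at 7364, by *Sdc2* at 5033, *Itgb5* at 3039, *Gpc1* at 2567 and *Ddr2* at 2298 normalized counts per kb. *Itgb1* ranged from 12532 to 19435 per kb, above every value of *Itgbl1*, which reached 8921. The ranges of all other neighbours in the upper part of this order overlapped, down to *Sdc3* at 1188, whose lowest value of 1097 per kb was above the highest of *Gpc4*, 962. The most abundant alpha subunits were *Itga11*, a collagen receptor of fibroblasts, at 1749 and *Itga5*, the fibronectin receptor, at 1405 normalized counts per kb. *Itgb2*, the beta subunit of the main leukocyte integrins, was at 1198.

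**Figure D1:**
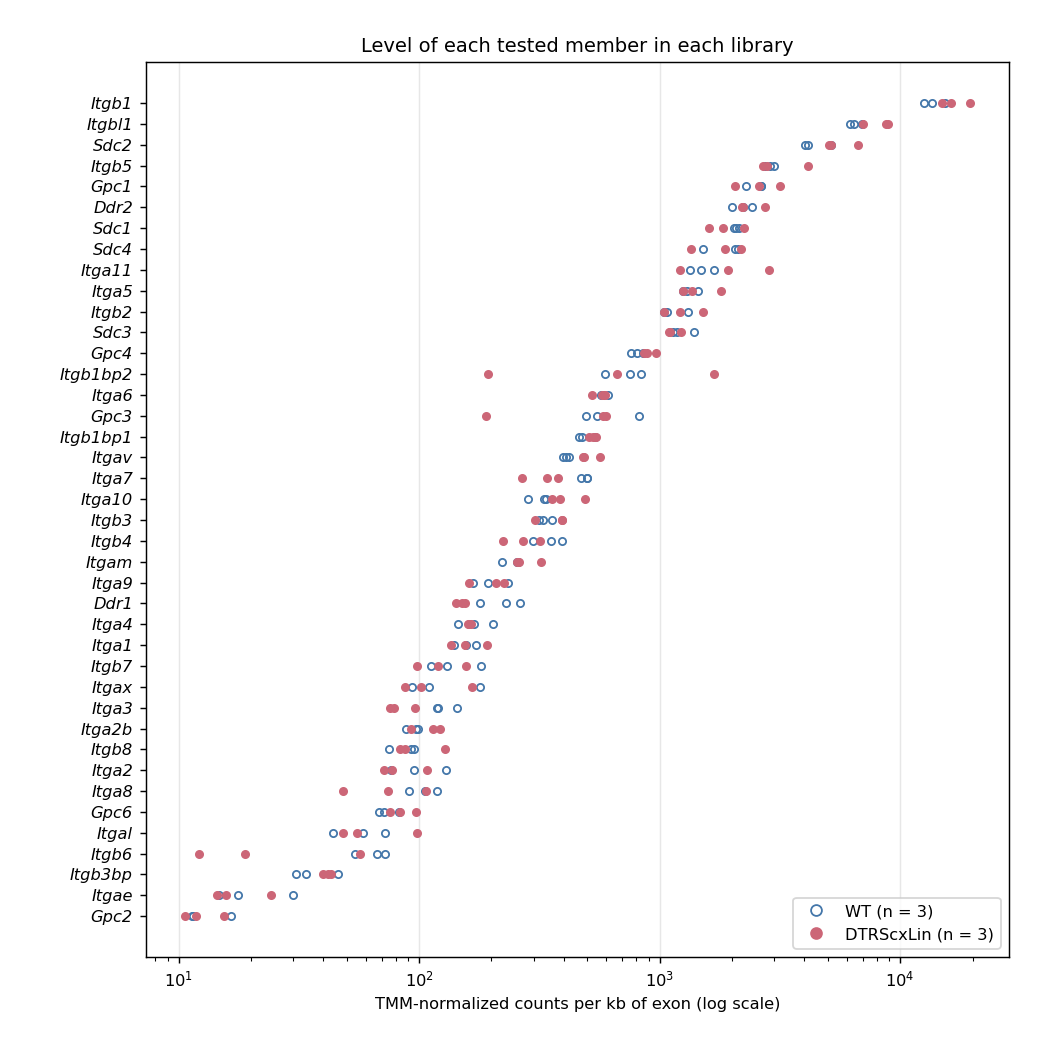
TMM-normalized counts per kb of exon (log axis) for the 40 members that passed the filter on low counts, in order of mean level, with open circles for the 3 WT and filled circles for the 3 DTRScxLin libraries. *Itgb1* stands alone at the top with a mean of 15355, and the DTRScxLin points of *Itgb6*, *Gpc3* and *Itgb1bp2* spread most widely.

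At the low end, 3 members did not pass the filter. *Itgb2l*, a beta2-like subunit, had 0 counts in every library, *Itgad*, a beta2 partner of macrophages, had between 0 and 3, and *Gpc5* had 4 counts in DTRScxLin replicate 3 and 0 in the other libraries. No fold change is given for them. The other 40 members were tested.

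edgeR called none of the 40 tested members at an adjusted p under 0.05 (their values lay between 0.274 and 0.998) and no other gene (0% of 17496 in each direction). At an unadjusted p under 0.05, 7 members were found, 3 higher and 4 lower in DTRScxLin tendons, against 11% of all genes tested (5.52% higher and 5.45% lower). The groups did not overlap in 7 members, against 16.8% of all genes tested: 4 had every DTRScxLin tendon above the WT tendons (8.96% of all genes) and 3 had every one below (7.85%). By DESeq2's Wald test, the method of the study, 3 members were lower at an adjusted p under 0.05 and 0 were higher, against 2.65% of 17564 genes in either direction (1.53% lower and 1.12% higher). limma-voom called 0 members and no other gene, with 8 members at an unadjusted p under 0.05, against 11.4% of all genes tested. The median log2 fold change (DTRScxLin relative to WT) was 0.07 over the 40 members, with 22 higher and 18 lower, and 0.01 over all genes tested.

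**Figure D2:**
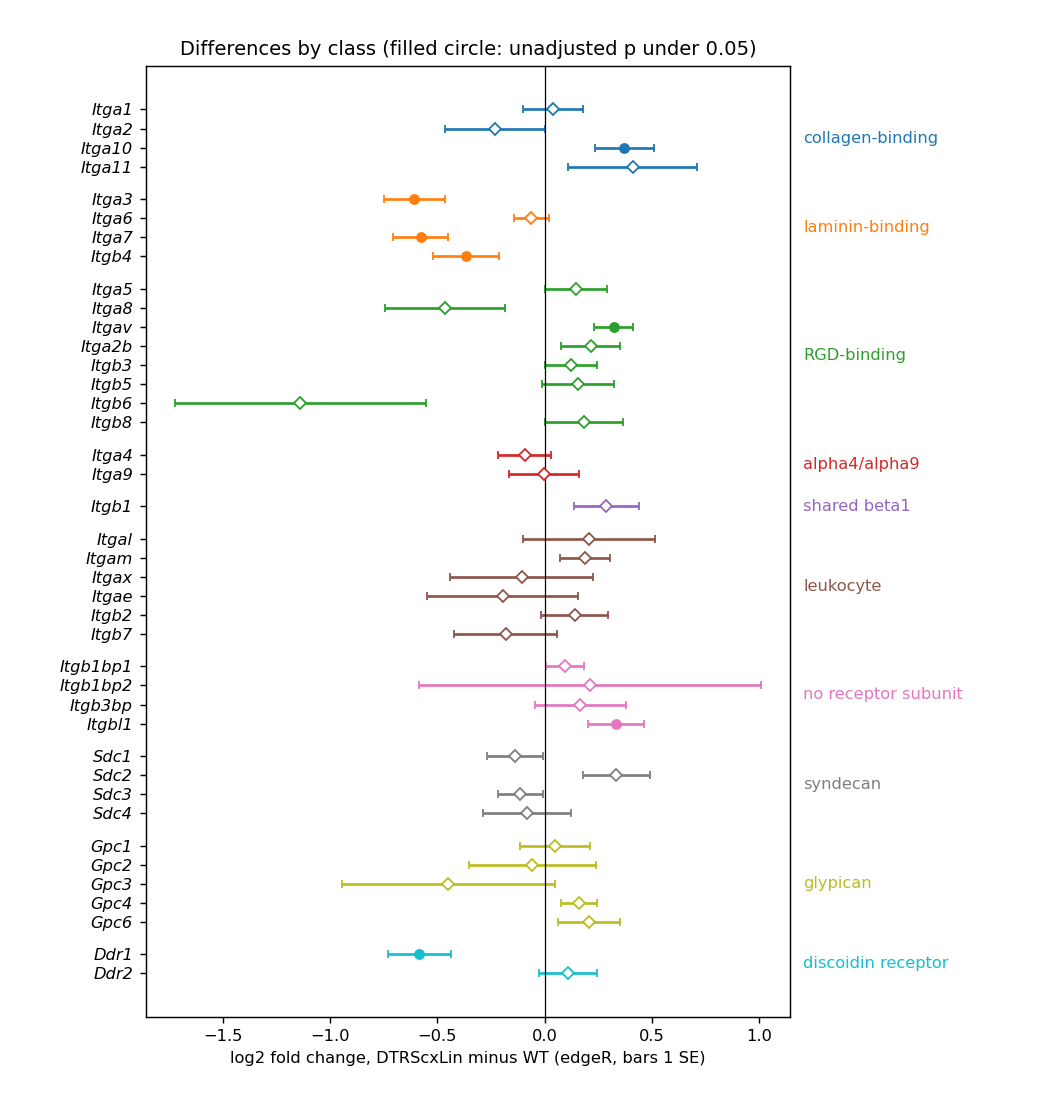
Log2 fold change of DTRScxLin relative to WT for each of the 40 tested members, grouped by class, with bars of 1 standard error from edgeR's fit and filled circles where the unadjusted p was under 0.05. All 4 laminin-binding subunits lie below 0 (median -0.47), while 6 of 8 RGD-binding and 3 of 4 collagen-binding subunits lie above it.

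Laminin-binding integrins anchor cells to basement membranes, as around muscle fibers, Schwann cells, vessels and epithelia. All 4 subunits of this class (*Itga3*, *Itga6*, *Itga7* and *Itgb4*) were fitted lower in DTRScxLin tendons, with a median log2 fold change of -0.47, and 3 of the 4 had an unadjusted p under 0.05, where 5.45% of all genes tested were lower. Their summed normalized counts were 11878, 12787 and 12686 in the WT tendons, against 9613, 10128 and 10611 in the DTRScxLin tendons. The groups did not overlap in this sum, and the median stayed between -0.54 and -0.35 with each library left out in turn.

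*Itga7*, the main alpha subunit by which skeletal and smooth muscle cells bind laminin, had 3813, 4051 and 4039 normalized counts in the WT tendons, against 2163, 3058 and 2751 in the DTRScxLin tendons. Each DTRScxLin library was below each WT library. The DTRScxLin mean was 0.67 times the WT mean (log2 fold change -0.58 ± 0.13 SE, adjusted p = 0.274 by edgeR and 0.0095 by DESeq2). *Itga3*, a laminin-332 and laminin-511 receptor best known from epithelia, had 684, 822 and 677 normalized counts in the WT tendons, against 549, 449 and 434 in the DTRScxLin tendons, again without overlap. Its log2 fold change was -0.61 ± 0.14 SE (adjusted p = 0.293 by edgeR and 0.0195 by DESeq2). *Itgb4*, which pairs with alpha6 in hemidesmosomes and in Schwann cells, had 2089, 2751 and 2488 in the WT tendons, against 1562, 1894 and 2228 in the DTRScxLin tendons. DTRScxLin replicate 3 was within the WT range (log2 fold change -0.37 ± 0.15 SE, adjusted p = 0.452 by edgeR). The value was -0.25 without DTRScxLin replicate 1 and -0.498 without DTRScxLin replicate 3. *Itga6*, the partner of both beta1 and beta4, was the most abundant of the class per kb, with 5292, 5163 and 5482 in the WT tendons, against 5338, 4727 and 5197 in the DTRScxLin tendons (log2 fold change -0.06 ± 0.08 SE). Of the laminin-binding alpha transcripts per kb, *Itga7* made up 40%, 41.2% and 40.7% in WT and 28%, 38.5% and 34.3% in DTRScxLin replicates 1 to 3.

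Markers of cells that use these receptors were also uneven. The skeletal muscle list was low in DTRScxLin replicates 1 and 3, in which *Itga7* was lowest. In DTRScxLin replicate 2 the muscle list held 1.47% of counts, within the WT range, and *Itga7* was still below each WT library there. A list of 6 pericyte and smooth muscle genes held 0.217%, 0.194% and 0.263% of counts in WT tendons. DTRScxLin replicates 1 to 3 held 0.153%, 0.184% and 0.171%, without overlap. Each of the 6 genes taken alone overlapped, and 0 had an unadjusted p under 0.05. Normalized counts of *Des*, 1 of these genes, fell to 7000 and 12923 in DTRScxLin replicates 1 and 3, the libraries low in muscle genes. DTRScxLin replicate 2 reached 30263 for *Des*, inside the WT range of 25004 to 30885. With *Des* left out, the share of the list overlapped between the groups, as DTRScxLin replicate 1 then lay above WT replicate 2. A list of 8 Schwann genes held 0.0593%, 0.108% and 0.097% in WT and 0.0433%, 0.0589% and 0.0767% in DTRScxLin libraries, and 2 of its 8 genes were lower at an unadjusted p under 0.05. The 2 WT libraries rich in keratinocyte counts, replicates 1 and 2, had 684 and 822 normalized counts of *Itga3* and 2089 and 2751 of *Itgb4*, and WT replicate 3, with 0.000549% keratinocyte counts, had 677 and 2488. The part of muscle, pericyte, Schwann and keratinocyte transcripts in the laminin receptor values was not tested.

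**Figure D3:**
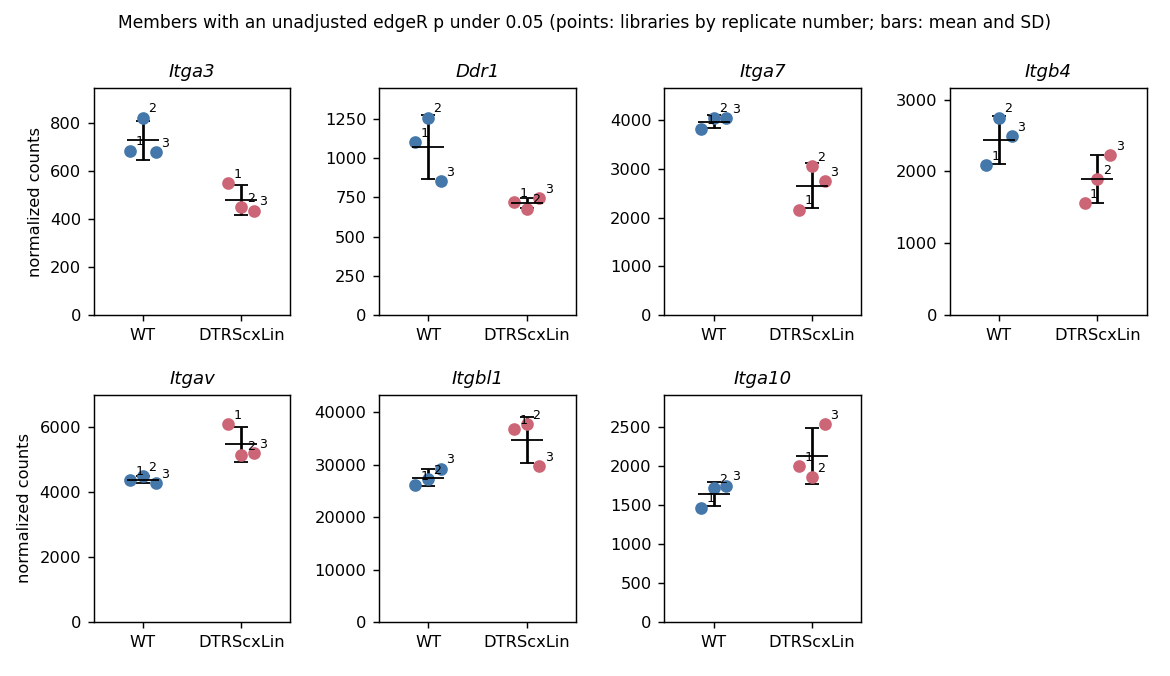
Normalized counts of the 7 members with an unadjusted p under 0.05 in edgeR's test, 1 point per library with its replicate number, and black bars for the mean and SD of each genotype (n = 3). *Itga3*, *Ddr1* and *Itga7* lie lower in all DTRScxLin libraries and *Itgav*, *Itgbl1* and *Itga10* higher, while *Itgb4* overlaps.

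Collagen-binding integrins pair with beta1 and share an inserted domain that holds triple-helical collagen. The 4 alpha subunits (*Itga1*, *Itga2*, *Itga10* and *Itga11*) showed 3 members fitted higher and a median log2 fold change of 0.21. The median was 0.06 without DTRScxLin replicate 1, 0.06 without DTRScxLin replicate 3 and 0.13 without WT replicate 1. It was 0.31 without DTRScxLin replicate 2. *Itga10*, known from cartilage and other fibroblastic tissues, had 1466, 1719 and 1753 normalized counts in the WT tendons, against 1999, 1858 and 2540 in the DTRScxLin tendons. Each DTRScxLin library was above each WT library, with a log2 fold change of 0.37 ± 0.14 SE (adjusted p = 0.420 by edgeR and 0.236 by DESeq2). Its value was 0.23 without DTRScxLin replicate 3 and 0.465 without DTRScxLin replicate 2. In GENCODE vM21, 33.5% of its exon bases also belong to *Gm42957* on the same strand, which had 2 to 10 counts, so reads shared by both could have been left out.

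*Itga11* was the main collagen-binding alpha subunit, with 68.3% to 82.1% of the class per kb in each of the 6 libraries. It had 8613, 6890 and 7611 normalized counts in the WT tendons, against 14562, 6257 and 9913 in the DTRScxLin tendons. DTRScxLin replicate 1 was the highest library and DTRScxLin replicate 2 the lowest, so the groups overlapped (log2 fold change 0.41 ± 0.30 SE, adjusted p = 0.633 by edgeR). Its value was 0.07 without DTRScxLin replicate 1 and 0.67 without DTRScxLin replicate 2. *Itga1*, also found on pericytes and T cells, ranged from 2602 to 3193 in WT and from 2525 to 3551 in DTRScxLin libraries, and *Itga2*, a receptor of platelets and epithelia, from 543 to 922 and from 510 to 770. Both overlapped, with log2 fold changes of 0.04 and -0.23.

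*Itgb1*, without which these alpha subunits do not reach the surface, had 55413, 51142 and 62708 normalized counts in the WT tendons, against 79313, 66604 and 60808 in the DTRScxLin tendons. DTRScxLin replicate 3 was within the WT range (log2 fold change 0.29 ± 0.15 SE, adjusted p = 0.509 by edgeR). The value was 0.17 without DTRScxLin replicate 1 and 0.37 without DTRScxLin replicate 3. The *Itgb1* level per kb was 2.27 to 2.81 times that of its 12 alpha partners together in WT and 2.51 to 3.29 times in DTRScxLin libraries.

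RGD-binding integrins hold fibronectin, vitronectin, osteopontin and the latent forms of TGF-beta. Of 8 subunits, 6 were fitted higher and 2 lower in DTRScxLin tendons, with a median log2 fold change of 0.15. The median was 0.02 without DTRScxLin replicate 1 and 0.25 without DTRScxLin replicate 2. *Itgav*, the alpha subunit common to several RGD receptors, had 4377, 4495 and 4280 normalized counts in the WT tendons, against 6098, 5150 and 5200 in the DTRScxLin tendons. The 3 WT libraries lay close together and each DTRScxLin library was above them. This gave a log2 fold change of 0.32 ± 0.09 SE (adjusted p = 0.347 by edgeR and 0.129 by DESeq2).

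The beta partners of alphav did not separate the groups. *Itgb5*, the most abundant per kb, had 10671, 9735 and 10226 normalized counts in the WT tendons, against 14637, 9933 and 9584 in the DTRScxLin tendons, so that DTRScxLin replicate 1 alone was outside the WT range by a wide margin (log2 fold change 0.16 ± 0.17 SE). Without that library the value was -0.07. *Itgb3*, also the beta subunit of the platelet receptor, ranged from 1858 to 2108 in WT and from 1785 to 2327 in DTRScxLin libraries, and *Itgb8*, which releases active TGF-beta from its latent complex, from 831 to 1055 and from 918 to 1415. *Itga5* (log2 fold change 0.15) and *Itga2b* (0.22), the alpha subunit of the platelet receptor, overlapped as well. *Itga8*, a nephronectin receptor of smooth muscle and other contractile cells, was at 668 to 875 in WT and at 787, 545 and 357 in DTRScxLin replicates 1 to 3 (log2 fold change -0.46 ± 0.28 SE).

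*Itgb6*, a beta subunit best known from epithelia, had the largest difference of any member and one of the widest spreads. It had 513, 477 and 384 normalized counts in the WT tendons, against 86.6, 404 and 134 in the DTRScxLin tendons. DTRScxLin replicates 1 and 3 were far below the WT libraries and DTRScxLin replicate 2 was within their range (log2 fold change -1.14 ± 0.59 SE, adjusted p = 0.513 by edgeR). Without DTRScxLin replicate 2 the log2 fold change was -2.05 with an adjusted p of 0.0126 by edgeR, in a fit that called 0.572% of genes higher and 2.45% lower and, of the members, *Itga7* and *Itgb6*. The keratinocyte list held 0.276%, 0.174% and 0.000549% of counts in the WT tendons, and 0.000456%, 0.000925% and 0.0249% in the DTRScxLin tendons. *Itgb6* was highest in the 2 libraries with the most keratinocyte counts and lowest in the one with the fewest, but the remaining libraries did not follow this order. DTRScxLin replicate 3, at 0.0249%, had 134 normalized counts, whereas WT replicate 3 and DTRScxLin replicate 2, at 0.000549% and 0.000925%, had 384 and 404. The skeletal muscle list was low in the same DTRScxLin libraries, replicates 1 and 3, as *Itgb6*. The part of keratinocyte and muscle transcripts in this difference was not tested.

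**Figure D4:**
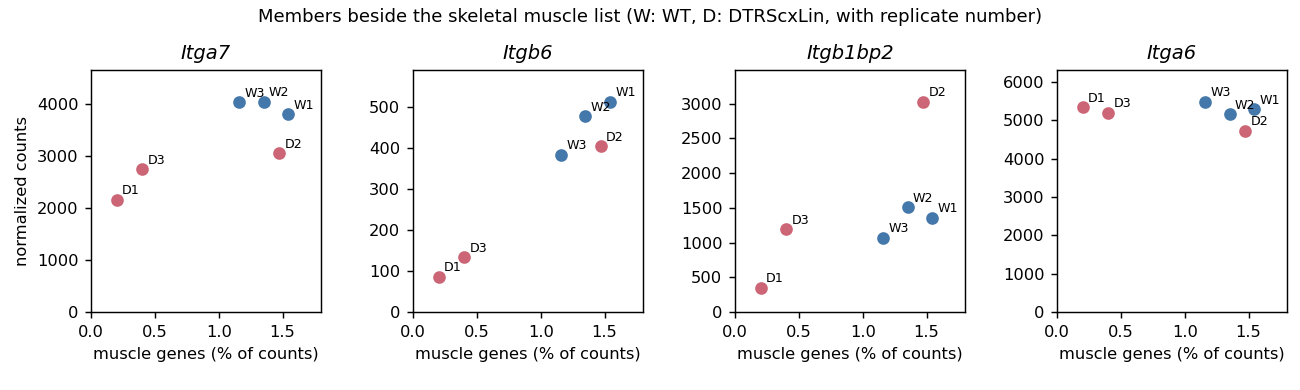
Normalized counts of *Itga7*, *Itgb6*, *Itgb1bp2* and *Itga6* in each library (y axes) against the share of that library's counts on 10 skeletal muscle genes (x axes, percent), blue for WT and red for DTRScxLin. DTRScxLin replicates 1 and 3, at 0.202% and 0.398% muscle counts, are lowest for *Itga7* and *Itgb6*, whereas *Itga6* is level across the libraries.

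No leukocyte integrin separated the genotypes. The 6 tested subunits split into 3 fitted higher and 3 lower (median log2 fold change 0.02), and 0 had an unadjusted p under 0.05. The median ranged from -0.28 to 0.22 with each library left out in turn. *Itgb2* had 3993, 3267 and 3182 normalized counts in the WT tendons, against 4634, 3696 and 3173 in the DTRScxLin tendons, with full overlap (log2 fold change 0.14 ± 0.16 SE, adjusted p = 0.759 by edgeR). Its alpha partners overlapped too: *Itgam*, of macrophages and neutrophils, ranged from 1114 to 1292 in WT and from 1288 to 1608 in DTRScxLin libraries, *Itgax*, of dendritic cells and macrophages, from 448 to 861 and from 419 to 797, and *Itgal*, of lymphocytes and other leukocytes, from 289 to 472 and from 317 to 644. Their levels per kb summed to 0.349 to 0.394 of that of *Itgb2* in WT and to 0.327 to 0.398 in DTRScxLin libraries.

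*Itgb7* and its partner *Itgae*, which lets lymphocytes hold E-cadherin on epithelia, were lower in level, with 312 to 503 and 67.6 to 137 normalized counts in WT, and both overlapped (log2 fold changes -0.18 and -0.20). Outside this class, *Itga4* (log2 fold change -0.09), the VCAM-1 receptor of leukocytes and some mesenchymal cells, and *Itga9*, which binds tenascin-C and osteopontin, also overlapped, and the most abundant of that pair per kb, *Itga9*, had 1287, 1482 and 1805 normalized counts in the WT tendons, against 1600, 1729 and 1240 in the DTRScxLin tendons. Myeloid markers overlapped as well: a list of 10 macrophage and myeloid genes held 0.346% to 0.426% of counts in WT and 0.377% to 0.414% in DTRScxLin libraries, with a median log2 fold change of 0.04. Within that list *Cd163*, a scavenger receptor of resident macrophages, was the one gene with an unadjusted p under 0.05, at 2515, 2715 and 2124 in WT and 490, 1124 and 945 in DTRScxLin tendons. A list of 6 neutrophil genes held 0.0187% of counts in DTRScxLin replicate 1 and at most 0.00293% elsewhere, and that library also had the highest *Itgb2*, *Itgam* and *Itgal*. The part of neutrophil transcripts in these values was not tested. T and NK cell genes (8 listed) held at most 0.00345% of the counts of any library. The exons of *Itgam* overlap those of *Gm49368* on the same strand over 68.7% of their length in GENCODE vM21, and *Gm49368* had 0 to 3 counts, so the level of *Itgam* could be understated in all libraries.

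**Figure D5:**
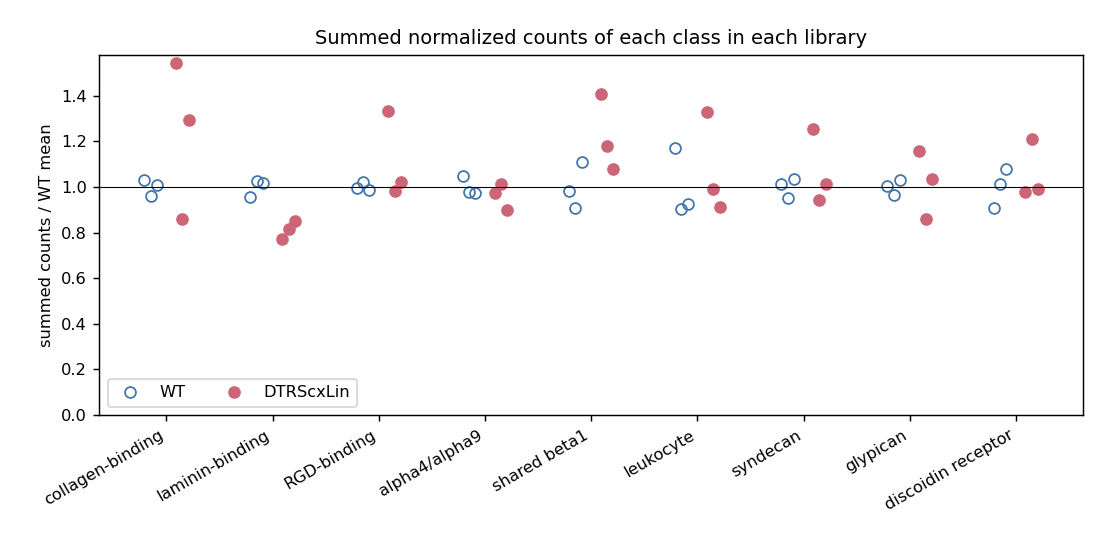
Summed normalized counts of each receptor class in each library, divided by the mean of the 3 WT libraries (line at 1), open circles for WT and filled circles for DTRScxLin. The laminin-binding sum is the one in which all DTRScxLin libraries lie under all WT libraries, and the leukocyte sum overlaps at 5607 to 7250 normalized counts in WT and 5655 to 8230 in DTRScxLin tendons.

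Of the members that carry an integrin name only, *Itgbl1* was the most abundant. It had 26089, 27286 and 29267 normalized counts in the WT tendons, against 36771, 37727 and 29712 in the DTRScxLin tendons. Each DTRScxLin library was above each WT library, replicate 3 by a small margin (log2 fold change 0.33 ± 0.13 SE, adjusted p = 0.441 by edgeR and 0.172 by DESeq2). *Itgb1bp2*, which encodes the striated muscle protein melusin, had 1358, 1512 and 1069 in the WT tendons, against 348, 3026 and 1193 in the DTRScxLin tendons (log2 fold change 0.21 ± 0.80 SE). The lowest value of *Itgb1bp2* was in the library with the fewest muscle transcripts, DTRScxLin replicate 1. DTRScxLin replicate 3, with 0.398% muscle counts, was within the WT range of *Itgb1bp2*. Without DTRScxLin replicate 2 its direction turned, to a log2 fold change of -0.77. *Itgb1bp1*, which binds the beta1 tail and restrains integrin activation, and *Itgb3bp*, a centromere protein, overlapped (log2 fold changes 0.10 and 0.17).

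Syndecans span the membrane and bind the matrix together with integrins. *Sdc2*, the most abundant per kb and typical of fibroblasts, had 14638, 14199 and 18266 normalized counts in the WT tendons, against 23493, 17790 and 18113 in the DTRScxLin tendons. DTRScxLin replicates 2 and 3 were just under WT replicate 3, and the groups overlapped (log2 fold change 0.34 ± 0.16 SE, adjusted p = 0.474 by edgeR). Without DTRScxLin replicate 1 the value was 0.19, and without WT replicate 3 it was 0.455. Of the syndecan transcripts per kb, *Sdc2* made up 42.6%, 43.1% and 52% in WT and 54.1%, 55.5% and 51.7% in DTRScxLin libraries. The other syndecans were fitted lower by less. *Sdc1*, of epithelia, plasma cells and wound fibroblasts, was at 7789 to 8133 in WT and at 8580, 6101 and 6987 in DTRScxLin replicates 1 to 3, *Sdc3* at 6813 to 8316 and 6567 to 7347, and *Sdc4*, which joins focal adhesions on fibronectin, at 3866 to 5415 and 3426 to 5549. Their log2 fold changes were -0.14, -0.11 and -0.08, but -0.03, -0.09 and 0.09 without DTRScxLin replicate 2, which turned the class median from -0.10 to 0.03.

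Glypicans are held to the outer membrane by a lipid anchor and modulate Wnt, hedgehog and BMP signals. *Gpc1*, the most abundant per kb, had 13608, 11794 and 13680 normalized counts in the WT tendons, against 16374, 10594 and 13422 in the DTRScxLin tendons, with full overlap (log2 fold change 0.05 ± 0.16 SE). *Gpc4* had 2022 to 2253 in WT and 2274 to 2550 in DTRScxLin libraries. The groups did not overlap, but the difference was small (log2 fold change 0.16 ± 0.08 SE, adjusted p = 0.507 by edgeR). *Gpc3*, a negative regulator of growth whose loss causes an overgrowth syndrome, had 1336, 2215 and 1477 in the WT tendons, against 509, 1564 and 1610 in the DTRScxLin tendons. Only DTRScxLin replicate 1 was outside the WT range (log2 fold change -0.45 ± 0.50 SE). *Gpc6* and *Gpc2* overlapped (0.21 and -0.06). *Gpc2* was low, at 45.4 to 70.7 normalized counts, and 55.6% of its exon bases are shared with *Gm43720*.

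The discoidin receptors were fitted in opposite directions. *Ddr1*, typical of epithelial cells and also found in Schwann cells and some leukocytes, had 1100, 1259 and 854 normalized counts in the WT tendons, against 721, 679 and 744 in the DTRScxLin tendons. Each DTRScxLin library was below each WT library, with a log2 fold change of -0.58 ± 0.15 SE (adjusted p = 0.307 by edgeR and 0.0367 by DESeq2). *Ddr2*, the mesenchymal receptor for fibrillar collagen, had 18438, 20583 and 22414 in the WT tendons, against 20341, 25408 and 20565 in the DTRScxLin tendons, and overlapped (log2 fold change 0.11 ± 0.13 SE, adjusted p = 0.782 by edgeR). Per kb, *Ddr2* was 8.64, 8.43 and 13.5 times as abundant as *Ddr1* in WT and 14.5, 19.3 and 14.2 times in DTRScxLin replicates 1 to 3. The highest *Ddr1* values were in WT replicates 1 and 2, which held 0.276% and 0.174% keratinocyte counts, and WT replicate 3, with 0.000549%, was closest to the DTRScxLin tendons. The Schwann list held 0.0593% to 0.108% of counts in WT and 0.0433% to 0.0767% in DTRScxLin tendons, with overlap. The part of keratinocyte and Schwann transcripts in the *Ddr1* difference was not tested.

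The sequences before the start sites of members fitted in opposite directions are shown for context, as 200 bases on the coding strand from RefSeq (GRCm38.p6). For *Itga3* (chr11:95076715-95076914, minus strand) and *Ddr1* (chr17:35704600-35704799, minus strand), the start farthest upstream of the 2 and 4 listed was taken, and *Itgav* (chr2:83724197-83724396, plus strand) and *Itga10* (chr3:96645384-96645583, plus strand) have 1 each. *Itga7*, *Itgb4* and other members have no entry in the table. Capitals mark GC boxes, searched as GGGCGG on both strands.
Itga3: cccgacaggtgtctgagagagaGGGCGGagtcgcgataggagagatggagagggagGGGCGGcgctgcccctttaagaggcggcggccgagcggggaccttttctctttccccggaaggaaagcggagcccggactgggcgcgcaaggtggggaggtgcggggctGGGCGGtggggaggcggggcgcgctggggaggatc
Ddr1: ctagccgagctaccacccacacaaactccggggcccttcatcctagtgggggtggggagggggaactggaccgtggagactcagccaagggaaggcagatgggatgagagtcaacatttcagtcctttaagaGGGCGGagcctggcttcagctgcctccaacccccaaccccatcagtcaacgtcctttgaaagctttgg
Itgav: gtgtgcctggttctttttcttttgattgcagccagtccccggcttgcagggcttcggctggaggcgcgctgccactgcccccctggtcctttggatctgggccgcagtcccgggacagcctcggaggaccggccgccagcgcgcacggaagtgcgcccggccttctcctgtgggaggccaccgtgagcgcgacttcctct
Itga10: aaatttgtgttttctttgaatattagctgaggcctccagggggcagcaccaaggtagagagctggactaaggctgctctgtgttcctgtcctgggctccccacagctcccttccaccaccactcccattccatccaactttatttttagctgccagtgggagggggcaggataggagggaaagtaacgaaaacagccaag

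The letters GGGCGG were found 3 times before *Itga3*, 1 time before *Ddr1* and 0 times before *Itgav* and *Itga10*. Of the 31 members with an entry, 14 held them in such a window, against 31% of all 32851 RefSeq windows of the same length. The letters TATAAA were found before 2 of the 31 members and in 9.96% of all windows, and in none of the 4 windows shown. Each member was counted with 1 window, at its start farthest upstream, whereas the 32851 windows include every listed start of a gene. The 2 sets are therefore not alike. A match describes the letters only.

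The ligands of these receptors were counted over a list of 36 genes, of which 34 passed the filter (*Madcam1* and *Lama1* did not). At an unadjusted p under 0.05, 7 were higher and 2 lower in DTRScxLin tendons, where 5.52% and 5.45% of all genes tested were, and the median log2 fold change was 0.21. At an adjusted p of 0.05, edgeR called 0, and DESeq2 called 5 higher and 1 lower, where it called 1.12% and 1.53% of all genes. The 3 genes with the smallest p were *Fbn1* (fibrillin-1, an RGD ligand), *Thbs1* (thrombospondin-1) and *Lama4* (a laminin alpha chain of vessels, muscle and nerve). *Fbn1* had 44397 to 53844 normalized counts in WT and 77829 to 83319 in DTRScxLin libraries, *Thbs1* 22636 to 22739 and 30474 to 43229, and *Lama4* 10378 to 12541 and 14730 to 17459. These genes, *Postn* and *Vcam1* were picked by the study on the same libraries, so they are not independent evidence. Among the other 29 tested ligands, 2 were higher and 2 lower at an unadjusted p under 0.05, and the median log2 fold change was 0.10. The 2 that were higher were *Lamc1*, the gamma chain of most laminins (log2 fold change 0.36), and *Col3a1* (0.54), and the 2 that were lower were *Vtn* (vitronectin, -0.63) and *Lama5* (the alpha chain of laminin-511, -0.31). They are named here after their values were seen.

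Cytoplasmic partners of integrins and syndecans were counted in the same way. All 32 genes of an adhesion complex list passed the filter, 24 were fitted higher and 8 lower, with a median log2 fold change of 0.11, where 9017 of all 17496 genes were fitted higher. At an unadjusted p under 0.05, 1 was higher and 1 lower, a share under the 11% of all genes, and 0 were called by edgeR or by DESeq2. The 3 genes with the smallest p were *Parvb* (beta-parvin, a partner of integrin-linked kinase), with 1832 to 1938 normalized counts in WT and 1504 to 1619 in DTRScxLin libraries, *Tns3* (tensin 3), with 9249 to 11152 and 11186 to 14381, and *Lims2* (PINCH2), with 906 to 1306 and 646 to 994. Their log2 fold changes were -0.26, 0.31 and -0.44. *Fermt1*, the kindlin of epithelia, was listed at 91.4, 36.7 and 0 normalized counts in the WT tendons, against 0, 0 and 17.5 in the DTRScxLin tendons. The 3 libraries above 0 were those with the most keratinocyte counts.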

How the data were processed

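Bulk RNA was measured in FDL tendons of 3 DTRScxLin and 3 WT mice. Reads from a stranded single-end protocol were filtered by the authors with FastP and assigned to genes with featureCounts, and the whole-number counts were deposited. A second deposited table holds signal values, which were checked to be the same counts scaled by a DESeq2 size factor for each library (0.973 to 1.06). The aligner, genome build, annotation and the strand setting of the counting are not given in the sources used here, so overlapping and antisense genes are uncertain. Columns were matched to samples by the labels. The sample titles count D28 from depletion, whereas the study counts it from surgery, and the count from surgery is used here.

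The genotype comparison used edgeR 4.0.16 in R 4.3.3 (filterByExpr, TMM, robust quasi-likelihood fit with genotype as the single term), DESeq2 1.42.0 and limma 3.58.1. Each standard error (SE) was derived from the F statistic, as |log2 fold change| / √F. Of 30758 genes with a count, 17496 were tested, including 40 of the 43 members. Exon lengths came from GENCODE vM21 and matched all 43. Per-library values were given for members with an unadjusted edgeR p or a DESeq2 adjusted p under 0.05, for the highest of each class per kb, and for *Itgb1* and *Itgb2*. *Itgb6*, *Itga8*, *Itgb1bp2*, *Sdc1* and *Gpc3* were added after their values were seen. Of each ligand or adhesion list, the 3 genes with the smallest p were named. Beyond these, *Fermt1*, *Lamc1*, *Col3a1*, *Vtn* and *Lama5* were added after their values were seen, and *Postn* and *Vcam1* as genes picked by the study. The members, classes and lists were chosen with earlier results of these data known. The fits were also run on simulated counts with known changes, drawn with the dispersions of edgeR's own fit. DESeq2 recovered more of the changes there and made more false calls than edgeR. Because the counts came from edgeR's fit, this run does not rank the tests. Alternatives were DESeq2, limma-voom, RLE and upper quartile normalization, 2 other filters, the replicate number as a block, and each library left out in turn. Replicate libraries differed by 36.6 to 190 chi-square per degree of freedom, far more than sampling noise. With counts this deep, n = 3 limits the precision.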

Additional observations from a re-analysis of the deposited data

How the results depend on the processing

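With 3 mice per genotype, calls depended on the test and on single libraries. Of the members, edgeR called 0, DESeq2 called 3 (*Itga3*, *Itga7* and *Ddr1*), edgeR without a filter on low counts called 1 (*Itga7*), and edgeR with 1 library left out called 0 to 2. The 2 were *Itga7* and *Itgb6* without DTRScxLin replicate 2. Over all genes the same fits called 0, 466, 83 and 0 to 544, and of the ligand list 0, 6, 2 and 0 to 2. With the replicate number as a block, 1 gene was called and 0 members. The block changed no other call. Same-numbered libraries did not deviate together: their deviations from the group means correlated at -0.188, -0.149 and -0.684. With 3 libraries per genotype and uneven muscle and keratinocyte transcripts, these values cannot show whether the samples were handled in pairs. The count of members without overlap was 7 to 15 with 1 library left out, where smaller groups separate more easily, and was 11 without DTRScxLin replicate 1, 12 without DTRScxLin replicate 2 and 15 without WT replicate 3. The share of all genes without overlap was not counted for these smaller groups. These counts therefore have no background, and nothing is read from them about the members. The laminin-binding median was -0.536 to -0.352 and the glypican median 0.0484 to 0.195 with 1 library left out. Of 16 members followed through 13 alternatives (*Itgb1bp2*, *Sdc4* and others not among them), 11 kept their direction in each. The 5 that did not had log2 fold changes of at most 0.157: *Itga9* at 0.000519 with limma-voom, 0.00144 with upper quartile factors, 0.00101 without a filter and -0.109 to 0.135 with 1 library left out, and, with 1 library left out, *Itgb5* at -0.0694 to 0.268, *Itgb2* at -0.0234 to 0.26, *Gpc1* at -0.121 to 0.195 and *Ddr2* at -0.000027 to 0.178.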

Other observations

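Mast cell genes, which belong to no comparison above, were uneven between the groups: a list of 5 held 0.00752%, 0.0102% and 0.00911% of counts in the WT tendons, against 0.00209%, 0.00706% and 0.00374% in the DTRScxLin tendons, without overlap, and 2 of the 5 genes were lower at an unadjusted p under 0.05. *Kit*, the receptor for stem cell factor, had 504 to 651 normalized counts in WT and 331 to 468 in DTRScxLin libraries.

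*Gpc3*, which lies on the X chromosome, was higher in each of the libraries with *Xist* counts than in each without them. It had 2215, 1564 and 1610 normalized counts in WT replicate 2 and DTRScxLin replicates 2 and 3, which had 49303, 53828 and 54082 counts of *Xist*. It had 1336, 1477 and 509 in WT replicates 1 and 3 and DTRScxLin replicate 1, which had at most 4. *Gpc4* and *Itgb1bp2* did not split in this way. *Gpc4* was highest in DTRScxLin replicate 1, at 2550, and *Itgb1bp2* had 1193 in DTRScxLin replicate 3 against 1358 in WT replicate 1. The split of *Gpc3* was picked out after the values were seen and was not tested.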
